A study of Drosophila melanogaster with 12 samples.

Results

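The translation factor genes are the 33 genes whose symbol in the RNA-seq table begins with eIF, eEF, Ef1, EF2 or eRF, out of 10287 genes in that table. They were chosen by name alone. They were measured in S2 cells, a macrophage-like line that was derived from embryos of Drosophila melanogaster and that the labels give as male Schneider 2 cells of Oregon-R origin. Every sample was first kept without serum for a day and then exposed for 4 h either to insulin or to its vehicle (25 mM HEPES, pH 8.2). The insulin dose is given as 10 µM in the methods, where the labels write 10 M. RNA-seq and ATAC-seq, in which a transposase inserts adapters into accessible DNA, were each performed on 3 samples per treatment. The paper speaks of biological replicates, but the sources do not say whether the samples were separate cultures, so p-values measure the spread between these samples, which may be technical. All groups come from a single cell line, and each RNA-seq library measures a bulk population, in which fewer cells of a kind and less RNA per cell cannot be told apart.

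Translation proceeds in steps, each run by its own factors. eIF2 carries the initiator tRNA to the small ribosomal subunit and is recharged with GTP by eIF2B. eIF3 binds the small subunit, and the eIF4 proteins recognize and unwind the capped end of the mRNA. eIF1A, eIF5 and eIF5B set the start codon and let the large subunit join. eIF6 keeps free large subunits from joining. The eEF1 proteins and EF2 then drive elongation, and eRF1 releases the finished protein at the stop codon. Insulin and TOR signaling are known to stimulate protein synthesis in flies.

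The 6 RNA-seq libraries held 7132065 to 10256535 counts over genes. No library was a copy of another: the chi-square of counts over its degrees of freedom was 2.27 to 6.90 for pairs of one treatment and 21.9 to 28.1 for pairs across treatments, where sampling noise alone gives a value near 1. The macrophage character of the line was visible in 5 of 8 plasmatocyte markers found in the table, whose CPM (counts scaled to a common library total) summed to 552 to 557 after vehicle and 418 to 428 after insulin. Of these markers Hml, eater, srp and crq fell, and the part of this shift in the results below was not tested. Muscle markers summed to 0.474 to 1.30 CPM, germline markers to 3.03 to 6.16, none of the 4 fat body markers was matched, and the neuron list (55.4 to 67.3 CPM) was almost wholly elav, at 52.8 to 64.7 CPM.

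The factor genes span a wide range of RNA levels, given here as CPM per kb of exon so that genes of different length can be compared. The highest levels were those of elongation factors. In vehicle libraries Ef1alpha48D, which brings aminoacyl-tRNA to the ribosome, averaged 3090.4, EF2, which moves the ribosome along the mRNA, 2678, and eIF-5A, which helps the ribosome through difficult peptide bonds, 2225. These genes ranked 39, 43 and 57 of the genes of the table for which a length was matched. Of the other subunits of the eEF1 complex, Ef1gamma, its scaffold, stood at 1124, Ef1beta, a nucleotide exchange subunit, at 899.8 and eEF1delta, another exchange subunit, at 215. Among initiation factors eIF-4a, the helicase that unwinds mRNA, was highest at 787, and the eIF3 subunits lay at 117 to 324. The eIF2 subunits lay at 93.1 to 187 and the eIF2B subunits, which act as a catalyst on eIF2, at 21.8 to 39.8. The 33 genes together took 2.90% ± 0.036 of all counts after vehicle and 3.14% ± 0.038 after insulin (mean ± SD, n = 3 each), and 55.2% of the vehicle sum of the 33 came from EF2 and Ef1alpha48D.

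**Figure D1:**
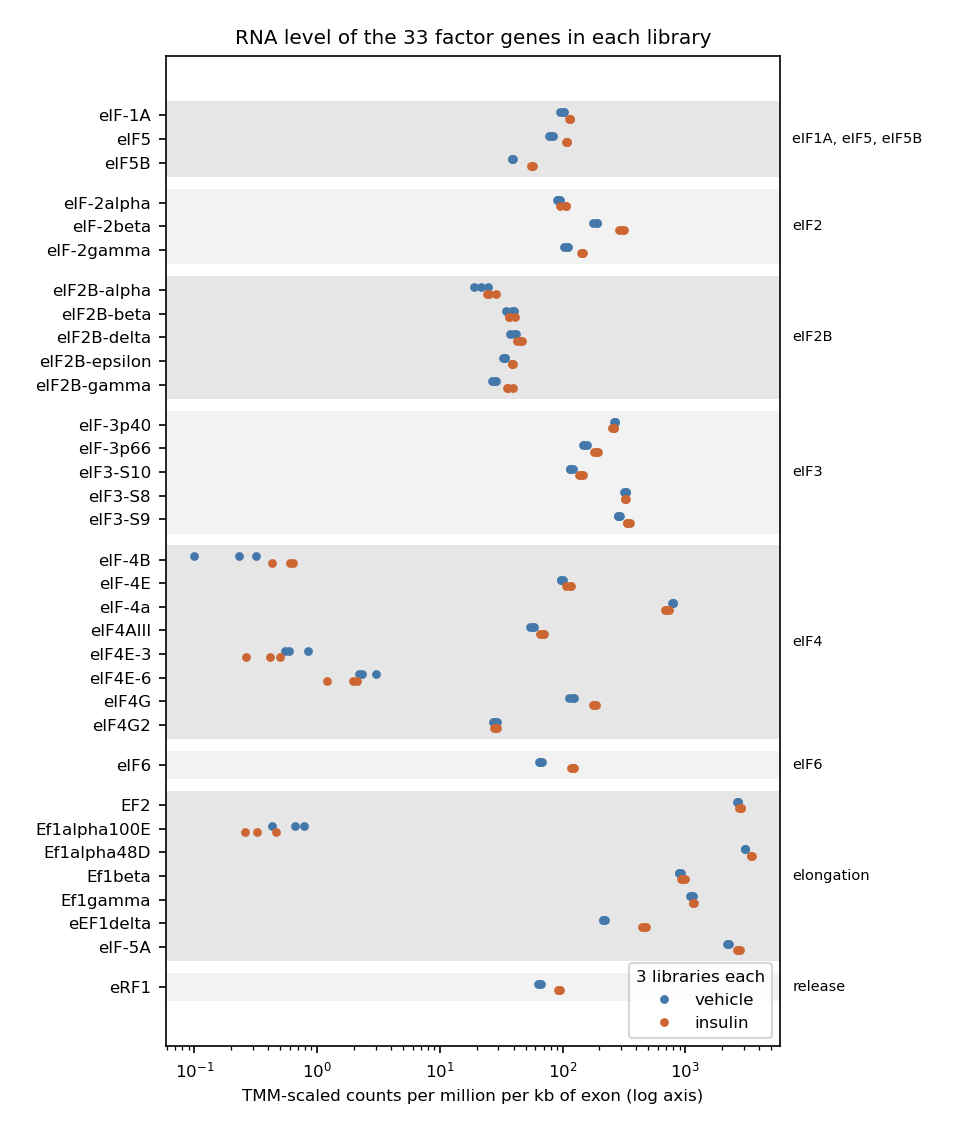
RNA level of each of the 33 factor genes in each library, as TMM-scaled CPM per kb of exon on a log axis, grouped by complex, with 3 vehicle and 3 insulin libraries as points. Elongation factors lie highest, at 2678 and 3090.4 after vehicle for EF2 and Ef1alpha48D, and eIF-4B, eIF4E-3, eIF4E-6 and Ef1alpha100E lie below 4.

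Several factors are encoded by more than one gene, and the copies differed widely in RNA. Ef1alpha100E, the second eEF1 alpha gene, had 16, 17 and 12 counts in the vehicle libraries and 12, 6 and 5 in the insulin libraries, which per kb is 0.0198% and 0.0104% of Ef1alpha48D. For the cap-binding protein eIF-4E, the copy eIF4E-6 reached 2.56% of its level per kb after vehicle and 1.55% after insulin, and eIF4E-3, known for its role in spermatogenesis, 0.668% and 0.353%. eIF4E-3 had 8, 5 and 6 counts after vehicle and 5, 3 and 2 after insulin and was too low to test. The scaffold gene eIF4G2, known for its role in the male germline, was less unequal, at 23.5% of eIF4G per kb after vehicle and 15.7% after insulin. Gene copies can share stretches of sequence. The counting command given in the methods sets no option for reads with several matches, which featureCounts leaves out by default, so reads from shared stretches may be missing and the levels of the low copies are uncertain.

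To see what the factor genes share at their promoters, the reference sequence from 250 bases before to 50 after the 5′ end of each gene was searched for 5 short motifs. The DNA replication-related element TATCGATA, the site of the factor DREF in Drosophila, is its own reverse complement and occurred in 14 of the 33 promoters (42.4%), against 11.9% of the 10244 genes of the table for which this window could be read and 31.4% of the 86 cytosolic ribosomal protein genes. The 14 promoters held 16 matches, of which 13 began in the last 100 bases before the 5′ end, and 12 matches in 10 genes lay inside merged ATAC-seq peaks. A match is a description of the reference, not a measured binding site, and the shares were not compared among genes of similar RNA level. Matches inside peaks follow, with the element in capitals, each in 30 bases on the strand of the gene (RefSeq Release 6 genome, dm6 coordinates), to show how the element sits in promoters of factors from each step of translation.
eIF-1A (chr3R:18274452-18274481, plus strand): atgatgatagaTATCGATAgctttagcggt
eIF-2gamma (chr3R:15263449-15263478, minus strand): gattagagcacTATCGATAggcattgtcgg
eIF3-S10 (chr3R:4433915-4433944, minus strand): tcggcctgaacTATCGATAacgcagccagg
eIF-4a (chr2L:5981701-5981730, plus strand): ggcgatcgatcTATCGATAgtcgctaatgt
Ef1gamma (chr3R:29220120-29220149, plus strand): ggcctaggaaaTATCGATAtatcgccgtaa
eEF1delta (chr2L:10232467-10232496, plus strand): gatggcgtagaTATCGATAtacctgcattc
eRF1 (chr3L:20348319-20348348, plus strand): atattttaagaTATCGATAatgtcatcgga
In these promoters the element began between 9 bases (eIF-2gamma) and 202 bases (eIF-1A) before the 5′ end, and eIF-2gamma carried 3 copies, beginning 96, 77 and 9 bases before it. The promoters of eIF6, eIF3-S8 and the low copy eIF4E-6 also held the element inside a merged peak. The peaks over the elements of eIF-2gamma, eRF1 and eIF6 were annotated to the neighboring genes Set, Rbbp5 and ytr.

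The other motifs were less frequent. The TCT start element, counted as CTTT with a pyrimidine on each side, on the strand of the gene and within 5 bases of the 5′ end, is typical of ribosomal protein promoters in flies. It was found in 29 of the 86 ribosomal protein genes (33.7%), in 1.59% of all genes, and in 1 of the 33 factor genes, eIF-4a, shown here as the single match.
eIF-4a (chr2L:5981749-5981778, plus strand): cttttgcaagatggagccTCTTTTgcttgg
When every annotated transcript start was searched, EF2 and eIF-5A joined it, giving 3 of 33 against 2.52% of all genes and 61.6% of ribosomal protein genes. The E-box CACGTG, also its own reverse complement, occurred in 2 factor promoters, eIF-4a and EF2 (6.06%, against 4.30% of all genes). TATAAA, on the strand of the gene, occurred in 12 (36.4%, against 28.7%), and the FOXO element GTAAACA, on either strand, in 5 (15.2%, against 10.1%).

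Next, the factor genes were compared between insulin and vehicle with edgeR's quasi-likelihood test over all 8683 genes with enough counts, with Benjamini-Hochberg adjustment over those genes (FDR). Of the 33 genes, 31 could be tested. After insulin 23 of them were higher at FDR < 0.05 and 1 was lower, while 7 did not pass. Over all tested genes 27.0% were higher and 23.1% lower. The median log2 fold change of the 31 was 0.22, against -0.014 for all genes. The largest rises were those of eEF1delta, eIF6, eIF-2beta and eIF4G, and the only fall was that of eIF-4a. The 3 insulin libraries lay wholly above the 3 vehicle libraries for 21 of the 31 and wholly below for 2, eIF-4a and eIF4E-6, against 28.8% and 26.8% of all tested genes. Of the 23 rises, 6 were above 0.5 on the log2 scale and 9 were below 0.25.

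**Figure D2:**
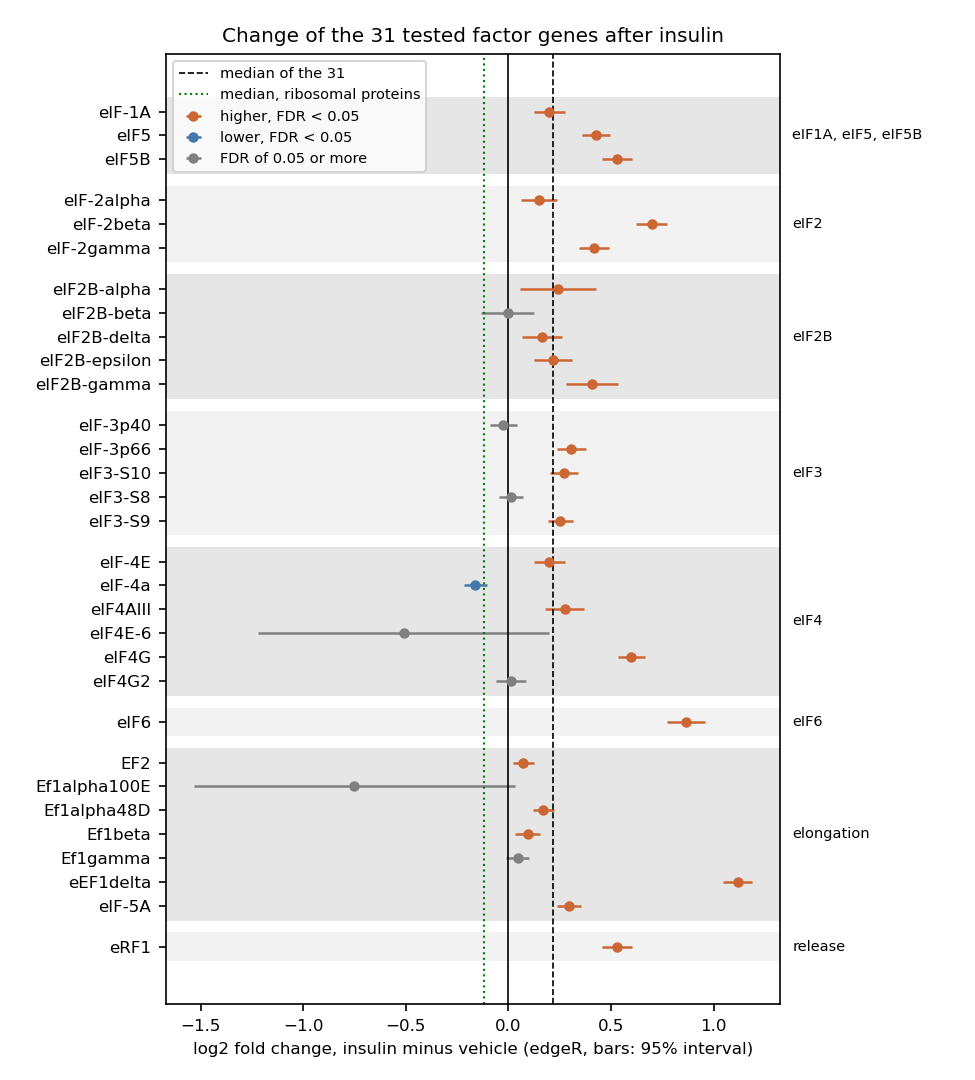
Log2 fold change (insulin minus vehicle) of the 31 tested factor genes by complex, with 95% intervals from edgeR. Points right of 0 are higher after insulin, the dashed line is the median of the 31 at 0.22 and the dotted line the median of the cytosolic ribosomal protein genes at -0.12. The 23 higher genes reach from 0.073 (EF2) to 1.12 (eEF1delta), and eIF-4a lies at -0.16.

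eIF6 (FBgn0034915, chr2R:23849246-23850301, BDGP6), the factor that binds the large subunit and keeps it from joining too early, rose 1.82-fold. It read 67.6, 69.6 and 72.2 CPM in the vehicle libraries and 124, 131 and 128 CPM in the insulin libraries. The groups lay far apart compared with the spread within each, and the log2 fold change was 0.87 (SE 0.045, edgeR FDR = 2.24e-20). Under the 12 other settings tried it stayed between 0.82 and 0.89. The genes that remove eIF6 from the large subunit in yeast and human cells have the counterparts CG33158, a GTPase, and CG8549 (Sbds). CG33158 rose, by 0.29 on the log2 scale (edgeR FDR = 1.20e-05). CG8549 did not pass, at 0.41 (edgeR FDR = 0.0683), with 19.7 to 24.4 CPM after vehicle and 24.1 to 36.1 after insulin. Its change lay between 0.26 and 0.57 over the other settings, and it passed in 5 of the 12, with DESeq2 (0.42), with limma-voom (0.39) and without vehicle library X2 (0.47) or insulin library X4 (0.57) or X6 (0.26).

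All 3 factors of start codon selection and subunit joining rose, against 27.0% of all tested genes. eIF5B, the GTPase that joins the large subunit, read 172, 173 and 172 CPM after vehicle and 253, 244 and 248 after insulin, a log2 fold change of 0.53 (SE 0.036, edgeR FDR = 1.68e-16). eIF5, which triggers GTP hydrolysis by eIF2 at the start codon, read 250.1, 259 and 268 and 345, 351 and 349 CPM, a change of 0.43 (SE 0.034, edgeR FDR = 2.87e-14). eIF-1A, which helps the small subunit scan, changed less, from 176, 165 and 172 to 199, 193 and 196 CPM, or 0.20 (SE 0.038, edgeR FDR = 2.37e-05). In all 3 genes every insulin library was above every vehicle library, which held for 28.8% of all tested genes. The fourth factor of this step, eIF1, carries the symbol CG17737 in the table and so falls outside the name rule, and it rose by 0.48 (edgeR FDR = 5.93e-15).

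The 3 subunits of eIF2 rose, against 27.0% of all tested genes, but to different degrees. eIF-2beta, the subunit that contacts eIF5 and eIF2B, rose 1.62-fold, from 216, 200.1 and 217 CPM after vehicle to 328, 346 and 356 after insulin, with a log2 fold change of 0.70 (SE 0.037, edgeR FDR = 1.21e-19). eIF-2gamma, which binds GTP and the initiator tRNA, read 245, 241 and 224 and 315, 323 and 312 CPM, a change of 0.42 (SE 0.036, edgeR FDR = 2.13e-13). eIF-2alpha, whose phosphorylation by stress kinases blocks recharging, read 140.0, 146 and 138 and 146, 162 and 163 CPM. Here the groups overlapped by a single vehicle library, the change was 0.15 (SE 0.043, edgeR FDR = 0.00342), and with scaling by library size alone it missed the threshold, at 0.11 (edgeR FDR = 0.0502). The ratio of eIF-2beta to eIF-2alpha RNA per kb was 2.01 ± 0.146 after vehicle and 2.94 ± 0.080 after insulin (mean ± SD, n = 3 each).

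In eIF2B, the exchange factor that returns eIF2 to its GTP-bound form, 4 of 5 subunits rose (80.0%), against 27.0% of all tested genes. eIF2B-gamma, in the catalytic part of the complex, showed the largest change, from 44.4, 43.4 and 41.3 to 55.5, 60.8 and 54.9 CPM, or 0.41 (SE 0.063, edgeR FDR = 5.06e-07). The catalytic subunit eIF2B-epsilon read 80.1, 82.7 and 83.2 and 95.1, 94.1 and 97.0 CPM, a change of 0.22 (SE 0.046, edgeR FDR = 9.65e-05). Both catalytic genes separated the treatments fully. Of the regulatory subunits, eIF2B-delta changed by 0.17 (SE 0.048, edgeR FDR = 0.00399) and did not pass with DESeq2 or without vehicle library X2 (0.12, edgeR FDR = 0.0608). eIF2B-alpha was the weakest call, with 24.9, 19.1 and 21.7 CPM after vehicle and 25.1, 28.8 and 24.4 after insulin. Its groups overlapped, its log2 fold change was 0.24 (SE 0.092, edgeR FDR = 0.0275), and it lost the call in 6 of the 12 other settings, among them those without vehicle library X2 (0.16), vehicle library X3 (0.23) or insulin library X5 (0.18). eIF2B-beta read 54.7, 46.6 and 53.1 and 49.9, 49.6 and 55.3 CPM. Its change was -0.0036 with a 95% interval of -0.13 to 0.13 (edgeR FDR = 0.970).

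Of the 5 eIF3 subunits named as such in the table, 3 rose and 2 did not pass. eIF-3p66, the d subunit, rose from 316, 296 and 301 to 362, 389 and 377 CPM, a change of 0.31 (SE 0.035, edgeR FDR = 5.40e-10). eIF3-S10, the a subunit of the core of the complex, rose from 451, 450.4 and 469.5 to 551, 531 and 572 CPM, or 0.27 (SE 0.033, edgeR FDR = 2.78e-09). eIF3-S9, the b subunit of that core, rose by 0.25 (edgeR FDR = 2.73e-09). For these 3 genes the treatments did not overlap, and 28.8% of all tested genes likewise lay wholly higher after insulin. The c subunit eIF3-S8 read 1091, 1084 and 1049 CPM after vehicle and 1077, 1097 and 1079 after insulin, a difference of 0.013 with a 95% interval of -0.046 to 0.073 (edgeR FDR = 0.739). The h subunit eIF-3p40 differed by -0.025, with an interval of -0.090 to 0.040 (edgeR FDR = 0.549).

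Further eIF3 subunits carry other symbols in the table, and with them 14 subunit genes could be matched and 13 tested. Of the 13, 6 rose (46.2%), 3 fell (23.1%) and 4 did not pass, against 27.0% and 23.1% of all tested genes, so the share that fell was that of the background. The subunits had a median log2 fold change of 0.013 (-0.014 for all genes), which lay between -0.032 and 0.021 over the other settings. Adam, the loosely bound j subunit, rose most. It read 141, 133 and 142 CPM after vehicle and 221, 216 and 214 after insulin, or 0.65 on the log2 scale (edgeR FDR = 2.22e-18). Trip1 (i) and Int6 (e) rose by 0.17 and 0.13 (edgeR FDR = 2.31e-05 and 0.00163), the latter missing the threshold with library size alone (0.080, edgeR FDR = 0.0691). CG8636 (g) fell, from 390.2, 377 and 390.3 to 322, 330.0 and 331 CPM, or -0.24 (edgeR FDR = 5.43e-08). CG5642 (l) fell from 140.5, 135 and 142 to 131, 119 and 123 CPM, or -0.16 (edgeR FDR = 0.00155), and Tango7 (m) changed by -0.16 (edgeR FDR = 1.89e-04). These 3 falls passed in all 12 other settings.

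**Figure D3:**
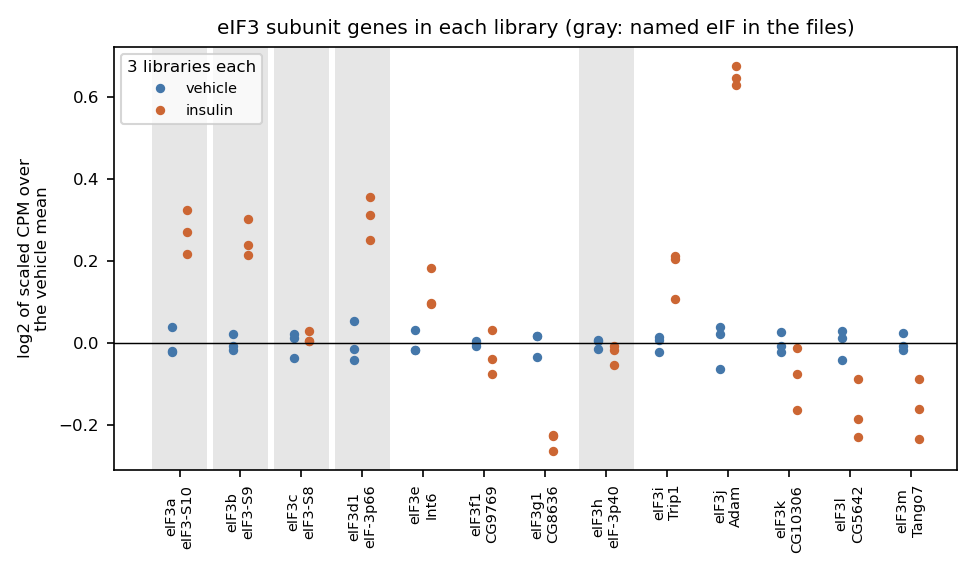
The 13 tested eIF3 subunit genes in each library, as the log2 of TMM-scaled CPM over the mean of the vehicle libraries, with present subunit symbol above and table symbol below. Gray bands mark genes named eIF in the table. The 3 insulin libraries of Adam lie above 0.6 and those of CG8636 below -0.2.

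The eIF4 group was split. eIF4G, the scaffold that joins cap-binding protein, helicase and ribosome, rose 1.52-fold. Its libraries read 747, 793 and 819.8 CPM after vehicle and 1227, 1180.4 and 1168 after insulin, a log2 fold change of 0.60 (SE 0.032, edgeR FDR = 1.70e-19). eIF-4E, which binds the cap, rose less, from 218, 226 and 219 to 261, 259 and 240.2 CPM, or 0.20 (SE 0.037, edgeR FDR = 1.30e-05). eIF-4a, the helicase joined by that scaffold, was the only factor gene to fall. It read 1956, 1938 and 1962 CPM after vehicle and 1701, 1814 and 1724 after insulin, a fall that separated all libraries of the treatments and amounted to -0.16 (SE 0.029, edgeR FDR = 8.59e-06). It lay between -0.21 and -0.14 and passed the threshold in all 12 other settings. eIF4AIII, a related helicase of the exon junction complex, rose from 79.7, 87.1 and 85.0 to 97.5, 103 and 104 CPM, or 0.27 (SE 0.047, edgeR FDR = 3.76e-06). Of the other group members, eIF4G2 differed by 0.013 with an interval of -0.061 to 0.086 (edgeR FDR = 0.805), and eIF4E-6 had 19, 13 and 16 counts after vehicle and 13, 10 and 6 after insulin (log2 fold change -0.51, edgeR FDR = 0.235, and -0.32 without insulin library X6).

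eIF-4B, a cofactor of the helicase, was close to the detection limit, at 4, 5 and 2 counts in the vehicle libraries and 12, 8 and 6 in the insulin libraries. It was too low for the filter and was not tested. Why the counts of this gene were so low was not tested either, so its RNA level is uncertain. The insulin counts lay above the vehicle counts, and in the fit without a filter the gene passed narrowly, at 1.41 (edgeR FDR = 0.0414).

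Elongation factors gave both the largest and the smallest rises. eEF1delta (FBgn0032198, chr2L:10232507-10234450), a nucleotide exchange subunit of the eEF1 complex, rose 2.17-fold. It read 204, 198 and 197 CPM in the vehicle libraries and 444, 416 and 438 CPM in the insulin libraries, a log2 fold change of 1.12 (SE 0.035, edgeR FDR = 3.26e-28). Its rise was rank 61 among all tested genes with a matched length. The other exchange subunit, Ef1beta, read 853, 880.1 and 858 and 891, 951 and 924 CPM and changed by 0.094 (SE 0.031, edgeR FDR = 0.00982). That call was lost with scaling by library size alone (0.049) and without vehicle library X1 (0.075). The scaffold Ef1gamma read 1910.3, 1942 and 1863 and 1956, 1942 and 2002 CPM, a difference of 0.046 with an interval of -0.011 to 0.10 (edgeR FDR = 0.178).

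The elongation genes with the highest levels rose by smaller amounts. Ef1alpha48D rose from 7623, 7615 and 7606 CPM to 8532, 8629.8 and 8536 CPM, or 0.17 (SE 0.025, edgeR FDR = 1.70e-07). eIF-5A read 1778, 1786 and 1822 and 2127, 2265 and 2215 CPM, a rise of 0.29 (SE 0.029, edgeR FDR = 8.13e-12). Both separated the treatments fully and passed in all 12 other settings. EF2 read 8132, 8258 and 8162 CPM after vehicle and 8365, 8725 and 8739 after insulin, a log2 fold change of 0.073 (SE 0.026, edgeR FDR = 0.0156). The EF2 call failed in 7 of the 12 other settings, including DESeq2 (0.072), scaling by library size alone (0.028) and the fits without vehicle library X1, X2 or X3 or insulin library X6 (0.059, 0.074, 0.073 and 0.060). Ef1alpha100E had a log2 fold change of -0.75 with an interval of -1.53 to 0.030 (edgeR FDR = 0.105), and without vehicle library X3 it passed at -0.99 (edgeR FDR = 0.0478).

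Ratios of RNA per kb within a library do not depend on how libraries are scaled, and 10 were computed after the changes had been seen. eEF1delta RNA stood at 0.239 ± 0.0080 of Ef1beta after vehicle and 0.486 ± 0.032 after insulin. Ef1beta itself stood at 0.801 ± 0.012 and 0.828 ± 0.032 of Ef1gamma, with overlapping libraries. eIF4G RNA rose from 0.152 ± 0.0070 to 0.258 ± 0.014 of eIF-4a, and eIF-4E RNA from 0.126 ± 0.0033 to 0.161 ± 0.0082 of eIF-4a (mean ± SD, n = 3 each). An exact permutation test of the libraries gave p = 0.2 for Ef1beta over Ef1gamma and p = 0.1 for the other pairs. With 3 libraries per treatment this test cannot go below 0.1, so it cannot decide whether a ratio changed. The pairs were also picked with the changes known, so the ratios are a description.

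**Figure D4:**
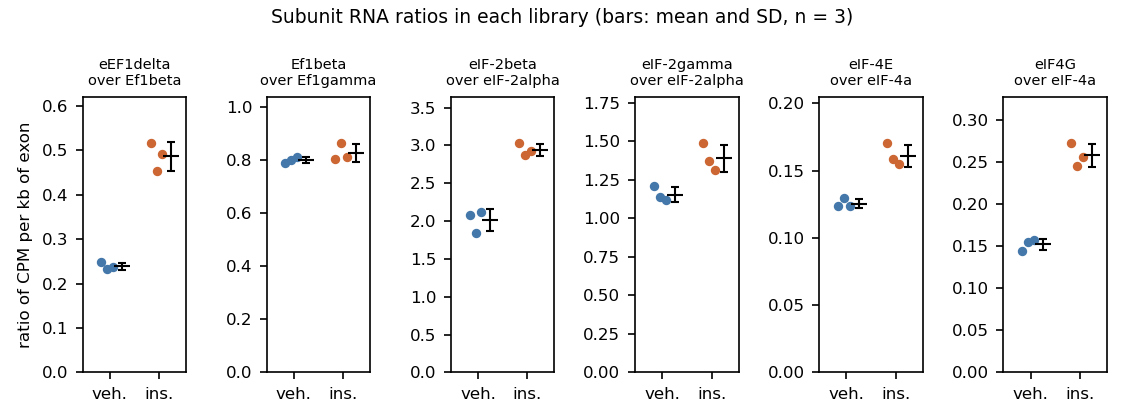
Ratio of RNA level per kb of exon between subunits in each library, for 6 pairs, with 3 vehicle (veh.) and 3 insulin (ins.) libraries as points and the mean and SD beside them. eEF1delta over Ef1beta moves from 0.239 to 0.486, and Ef1beta over Ef1gamma stays near 0.8 in both treatments.

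eRF1 (FBgn0036974, chr3L:20348355-20353873), which reads the stop codons, rose 1.44-fold, from 197, 201 and 207 CPM after vehicle to 289.9, 298 and 285 after insulin, or 0.53 (SE 0.035, edgeR FDR = 9.58e-17). Its partner, the GTPase eRF3, has the symbol Elf in the table and so falls outside the name rule. Elf read 376, 374 and 365 CPM and 552, 557 and 563 CPM and rose by 0.58 (edgeR FDR = 7.32e-20). In neither release factor gene did the treatments overlap, and 28.8% of all tested genes likewise lay wholly higher after insulin. The genes with a factor's present symbol but another name in the table numbered 16, among them the further eIF3 genes above, eIF1 and eRF3. Of the 15 that were tested, 8 rose (53.3%) and 3 fell, against 27.0% and 23.1% of all tested genes. The share that fell was thus near the background.

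Genes that act on these factors were read as a further list. Of 13 regulators, 5 rose (38.5%) and 4 fell (30.8%), against 27.0% and 23.1% of all tested genes, so both shares were near the background. One of the falls, RpS6, is also among the ribosomal protein genes counted below. Pdcd4, which in mammals binds and blocks the eIF4A helicase, fell from 493, 498 and 509 to 193, 189 and 195 CPM, or -1.38 on the log2 scale (edgeR FDR = 9.73e-32), while eIF-4a itself showed the smaller fall given above. Lk6, the kinase that phosphorylates eIF-4E, fell by 0.42 (edgeR FDR = 1.11e-15). The poly(A)-binding protein gene pAbp and the kinase gene S6k rose by 0.42 and 0.39 (edgeR FDR = 5.86e-17 and 1.42e-13). Thor, the 4E-BP that sequesters eIF-4E, was scarce, with 30, 51 and 41 counts after vehicle and 26, 13 and 17 after insulin. It fell by 0.91 (edgeR FDR = 0.00247), and without vehicle library X2 it missed the threshold, at -0.63 (edgeR FDR = 0.0514).

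Of the genes linked to eIF2 alpha phosphorylation, crc, the fly ATF4, rose by 0.22 and the kinase gene Gcn2 changed by -0.16 (edgeR FDR = 5.04e-08 and 0.00204). The kinase gene PEK and Gadd34, part of the phosphatase that reverses the mark, differed by -0.054 and 0.038 and did not pass (edgeR FDR = 0.168 and 0.511), though PEK passed with library size alone (-0.099, edgeR FDR = 0.0252).

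Of the 6 genes listed for the modification of eIF5A or eEF2, 5 rose (83.3%) and 1 fell (16.7%), against 27.0% and 23.1% of all tested genes. Dph5, which takes part in making the diphthamide residue of EF2, rose from 62.9, 67.0 and 61.0 to 139.7, 148 and 134 CPM, or 1.15 (edgeR FDR = 4.39e-24), a larger value than that of EF2 itself. nero, the hydroxylase that completes hypusine on eIF-5A, rose by 0.74 (edgeR FDR = 1.57e-12), and of the other diphthamide genes CG2911 (Dph4) and CG11652 (Dph1) rose by 0.74 and 0.26 while CG7265 (Dph2) changed by -0.27 (edgeR FDR = 1.01e-07, 2.06e-04 and 0.00141).

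A list of 19 translation genes outside the name rule included mitochondrial factors, rescue factors and helicases. Of the 19, 16 rose (84.2%) and 1 fell (5.26%), against 27.0% and 23.1% of all tested genes. Adam, Trip1 and Int6, already counted with eIF3, are among the 16. bel, a DEAD-box helicase of initiation, rose by 0.69 (edgeR FDR = 9.86e-22). The mitochondrial elongation factor genes ico (EF-G) and EfTuM (EF-Tu) rose by 1.05 and 0.71 (edgeR FDR = 6.48e-19 and 2.59e-20), and Rack1, a protein of the small ribosomal subunit, changed by -0.14 (edgeR FDR = 1.53e-04). The other classes of the translation machinery gave different counts. Of 21 aminoacyl-tRNA synthetase genes 19 rose (90.5%) and 2 did not pass, with a median log2 fold change of 0.45. Of 84 tested cytosolic ribosomal protein genes 8 rose (9.52%) and 51 fell (60.7%), with a median of -0.12. The median of the factor genes, 0.22, lay between these, and it had the same sign under every scaling, as did both other medians. These lists were not compared by a test.

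ATAC-seq was used to ask whether the factor genes carry open chromatin. Peaks had been called by the authors once per treatment, from all its samples, and the lists merged, so peak calls have no replicates. Of the 10269 merged peaks, 26 were annotated to factor genes. They fell on 19 of the 33 genes (57.6%), against 47.7% of all genes of the table. Genes with more RNA more often had a peak. Among those with at least 100 counts in every library, a subset set after the data were seen, 18 of 29 factor genes had a peak (62.1%), against 61.5% of all such genes, so the share was near the background. In 16 of the 19 genes there was a single peak. A peak in the proximal promoter, within 1 kb of a transcript start, was found for 18 genes (54.5%, against 43.4% of all genes). The proximal share was not compared within the subset with at least 100 counts.

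**Figure D5:**
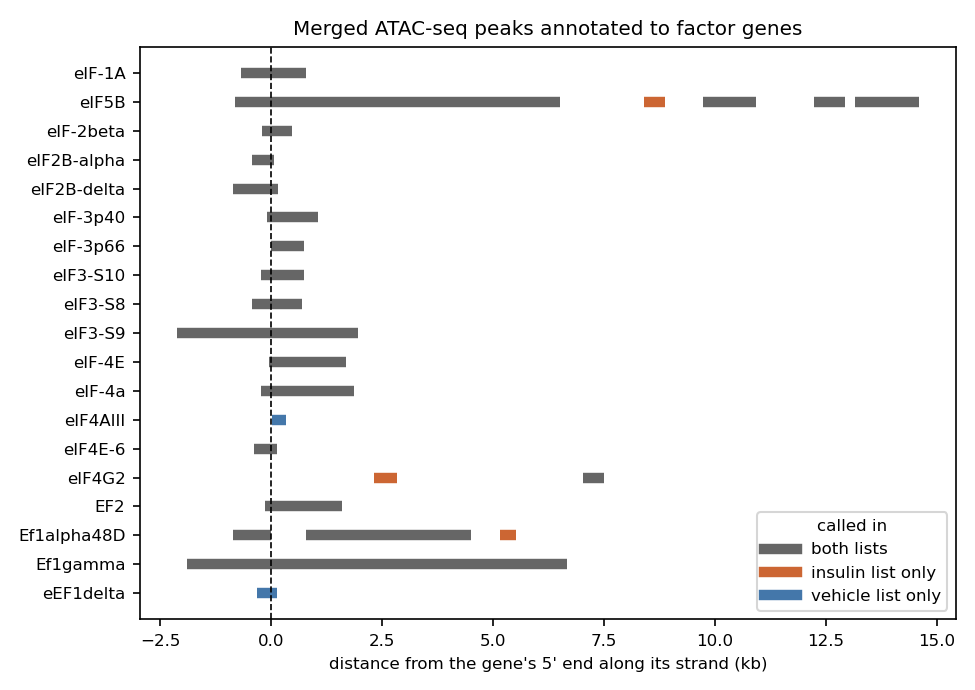
The 26 merged ATAC-seq peaks annotated to factor genes, drawn from their left to their right end as distance in kb from the 5′ end of the gene along its strand, and colored by the peak list in which they were called. Most span or adjoin the 5′ end, and eIF5B, eIF4G2 and Ef1alpha48D also carry peaks farther inside the gene. The outermost peak of Ef1alpha48D lies past the 3′ end of that gene.

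Peaks of neighboring genes also covered factor promoters. The annotated 5′ end lay inside a merged peak for 23 of the 33 genes (69.7%), against 47.0% of all genes. That share was not compared among genes with at least 100 counts in every library. For 7 of the 23 the peak was annotated to a neighbor. eIF6 was one of them: its 5′ end lay in a 1330 bp peak (chr2R:23849851-23851180, dm6) assigned to ytr, with an authors' normalized mean of 417 reads. The 5′ end of eIF-5A lay in a 7110 bp peak assigned to the ribosomal protein gene RpL39, that of Ef1beta in a peak assigned to Psi and that of eRF1 in one assigned to Rbbp5. eIF5, eIF-2alpha, eIF2B-beta, eIF2B-gamma and eIF4G, all with at least 343 counts in every library, had neither an annotated peak nor a covered 5′ end.

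The proximal peaks of the factor genes ranged widely in size. Their median width was 1140 bp, against 770 bp for all 6066 proximal peaks, and their median authors' mean was 351 reads per kb of peak, against 357. The widest were those of Ef1gamma (8570 bp, 2604 reads) and eIF5B (7340 bp, 2000 reads). The peak of Ef1gamma (chr3R:29218271-29226840) reached beyond both ends of the gene (chr3R:29220172-29222109). Its width and reads therefore also cover neighboring sequence. The densest were those of EF2 (1740 bp, 535 reads per kb) and eIF-4a (2100 bp, 517 reads per kb), both above 93% of all merged peaks. These values are means over all 6 samples, so they say nothing of insulin.

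Between the treatments' lists, 21 of the 26 peaks were called in both. The same share over all merged peaks was not computed, so the count has no background beside it. Factor genes had a peak in the vehicle list in 19 cases (57.6%, against 45.6% of all genes) and in the insulin list in 17 (51.5%, against 43.0%). Neither share was compared among genes with at least 100 counts in every library. The proximal peaks of eEF1delta (450 bp, 158 reads) and eIF4AIII (320 bp, 123 reads) were called after vehicle only, at scores of 67 and 57, the 24.1 and 18.4 percentile of that list, while the RNA of both genes rose. Peaks called after insulin only lay in an intron of eIF5B and 1-2 kb and 2-3 kb from a start of eIF4G2 and Ef1alpha48D, at scores of 23 to 33, all within the lowest 5% of the insulin list. Of these, the peak of Ef1alpha48D lay past the 3′ end of the gene. All 5 peaks called in a single list thus had scores in its lower part, and presence in a list is not a test of a difference. Of the 19 tested genes with a peak annotated to them 13 rose, with a median log2 fold change of 0.20. Of the 12 without, 10 rose, with a median of 0.35, but some of these had a 5′ end inside a neighbor's peak. Of the 23 tested genes with a covered 5′ end 17 rose (median 0.20), and of the 8 without, 6 rose (median 0.29). Of the 13 tested genes with a DRE in the promoter 8 rose (median 0.20), and of the 18 without, 15 rose (median 0.23). Over all tested genes 27.0% were higher after insulin, and the same splits over all genes were not computed. The splits of the factor genes are given as values, with no test.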

How the data were processed

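Insulin- and vehicle-exposed S2 cells were profiled by RNA-seq and ATAC-seq. For RNA-seq the authors used STAR (build BDGP6) and strand-aware featureCounts, and the deposited counts are raw whole numbers. For ATAC-seq they used Novoalign (build dm6), which put a read with more than one match at a random one of its matches, pooled the samples of a treatment for peak calling, and annotated merged peaks with ChIPseeker. The deposited signal per merged peak is the authors' mean of normalized reads over all samples, and the deposited score of each listed peak has no stated unit and was used only as a rank. For these tools the version is not given in the sources used here. The authors' deposited comparisons (DESeq2 fold changes and p-values for genes and peaks), normalized and regularized sheets and pathway table were not used.

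Counts were scaled by TMM and tested with edgeR 4.0.16 (R 4.3.3, limma 3.58.1; quasi-likelihood, robust) after filterByExpr, which kept 8683 of 10287 genes, with Benjamini-Hochberg adjustment over these and a threshold of FDR < 0.05. The spread between libraries corresponded to a biological coefficient of variation of 4.4%. The fit was tested on simulated counts with known changes. Libraries held 7132065 to 10256535 counts, which bounds the precision of low genes. CPM are TMM-scaled, and levels per kb use the union of annotated exons. Alternatives were scaling by library size or by DESeq2 size factors, no filter, at least 5 CPM in 3 libraries, DESeq2 1.42.0, limma-voom, FDR < 0.01 and leaving out each library. Listed peaks were assigned to a merged peak at an overlap of 1 bp or, as an alternative, 50% of both. The 5′ end of each gene was taken from the authors' annotation sheet and the sequence from the RefSeq Release 6 genome. Python 3.11.15 with pandas 2.3.3, numpy 2.4.6 and matplotlib 3.10.9 was used.

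Every gene that meets the name rule is accounted for. Values per library are given for eIF6, for the 2 largest rises and falls of each group, for the 5 genes with most counts and for gene copies, and in lists of other genes for up to 4 with the smallest FDR and Thor. The members, lists and motifs were chosen with earlier results of these data known.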

Additional observations from a re-analysis of the deposited data

How the results depend on the processing

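The count of factor genes that rose stayed between 19 (scaling by library size alone) and 24 (no filter), and was 21 at FDR < 0.01. Leaving out a library gave 20 to 23 rises and 1 to 2 falls, the second fall being Ef1alpha100E without vehicle library X3. Of the 24 calls, 19 kept their direction and their side of the threshold in all 12 other settings, and eIF-2alpha, eIF2B-alpha, eIF2B-delta, EF2 and Ef1beta lost theirs in at least 1. The median log2 fold change of the factor genes was 0.17 with library size alone, 0.22 with DESeq2 size factors in edgeR and with DESeq2, 0.21 with no filter and 0.23 at 5 CPM or more, and 0.21 to 0.24 when a library was left out. With library size alone the median of all tested genes was -0.060, against -0.014 with TMM, and the calls of eIF-2alpha, eIF2B-alpha, EF2 and Ef1beta were lost. Changes close to 0 turned sign: eIF3-S8 to -0.032 and eIF4G2 to -0.033 with library size alone, eIF4G2 to -0.00076 at 5 CPM or more, and, without a library, eIF2B-beta to between 0.020 and 0.029 (0.020, 0.024, 0.027 and 0.029), eIF3-S8 to -0.0023 and eIF4G2 to -0.014 to -0.012.

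With the window shortened to 100 bases before the 5′ end, TATAAA was found in 6 factor promoters and the FOXO element in 3, since the window is shorter, and the DRE in 12. Searching every transcript start raised the TCT element to 3 factor genes. The count of genes with a peak was 18 for proximal promoters and 23 for a covered 5′ end (added after the data were seen), and 16 in the insulin list at an overlap of 50%. No paired analysis was possible because the count columns carry no replicate number and the peaks were called on pooled samples. Depth limits the genes under 20 counts per library (eIF-4B, eIF4E-3, eIF4E-6 and Ef1alpha100E), and peak calls have no replicate error.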
